A study of Mus musculus with 6 samples.

Results

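The hedgehog core was read here as 9 mouse genes: the ligands Shh, Ihh and Dhh, the receptor Ptch1, the signal transducer Smo, the transcription factors Gli1, Gli2 and Gli3, and the ligand-binding inhibitor Hhip. Every probe set that the array's annotation ties to one of these symbols and to no other gene was taken, which gave 21 probe sets of the 45037 that are not controls, and 9 genes of 18193. Both groups came from wild-type FVB/N embryos of day 13 (Theiler stage 21), as unpooled bladder samples of unknown sex. One group was the mesenchyme (3 arrays, numbered 1, 2 and 4 in the labels) and the other the epithelium, labelled urothelium (3 arrays, numbered 5, 7 and 8). The layers of each dissected bladder were loosened for 20 minutes in 20 µM EDTA and pulled apart with a needle, and total RNA went through 2 rounds of amplification before hybridisation to Affymetrix MOE430 arrays. The labels mark the samples as not pooled but leave unsaid whether each array stands for a different embryo or litter. The p-values therefore measure only the spread between these samples, which may be technical.

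Hedgehog ligands are secreted proteins that bind Ptch1 on a receiving cell. Without ligand, Ptch1 holds Smo inactive; with ligand, Smo is released and the Gli proteins switch target genes on. Ptch1, Gli1 and Hhip are themselves common targets, so their transcripts serve as readouts of reception. Gli2 is known mainly as an activator and Gli3 largely as a repressor. In the embryonic bladder, as in gut and lung, the epithelium is known as the source of Shh and the surrounding mesenchyme as the layer that answers it and forms smooth muscle.

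The values are array signals on a linear scale, brought by scaling to a 2% trimmed mean of 1500 on every array. Median signals per array ran from 132 to 240, which gives a sense of what a dim probe set is; no detection calls were used, so a low signal is not called absent. Of 12 epithelial markers 11 were higher in urothelium and 0 in mesenchyme, and of 12 mesenchymal markers 12 were higher in mesenchyme; none was at 0 in the other layer. Mesenchyme 1 and urothelium 5 stood apart in their beta-actin probe sets: the signal near the 3' end over that near the 5' end, a gauge of shortened RNA, was 8.40 and 8.60, and the other arrays had 2.29 to 4.89. Values without both are given beside the calls of the 9 genes that they change. Probe sets differ in how well they bind, so signals are compared between layers for one probe set and never between genes.

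Taking the brightest probe set of each gene, Shh was higher in urothelium, while Dhh, Ptch1, Gli1, Gli2 and Hhip were higher in mesenchyme. Ihh, Smo and Gli3 did not pass the test (limma, adjusted p under 0.05 over all 45037 probe sets). These are 1 and 5 of 9 genes, beside 4.72% and 7.24% of all 18193 genes called in those directions. The median log2 difference of the 9 genes, urothelium minus mesenchyme, was −1.33, against −0.11 over all genes. Over all 21 probe sets, 2 were higher in urothelium and 9 in mesenchyme, beside 2.88% and 4.46% of all probe sets (7.34% in either direction; 12.0% over genes). The count in mesenchyme fell to 3 without mesenchyme 2, mesenchyme 4, urothelium 7 or urothelium 8, each time with Ptch1 and Gli1 lost, and to 4 without mesenchyme 1. Without mesenchyme 1 and urothelium 5 together the counts were 2 and 6, with Ihh and Gli3 added. Differences are on the scale of log2(signal + 45), which understates those of dim probe sets. The folds given between layers are these differences turned back from the log2 scale, so they are not ratios of mean signals.

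**Figure D1:**
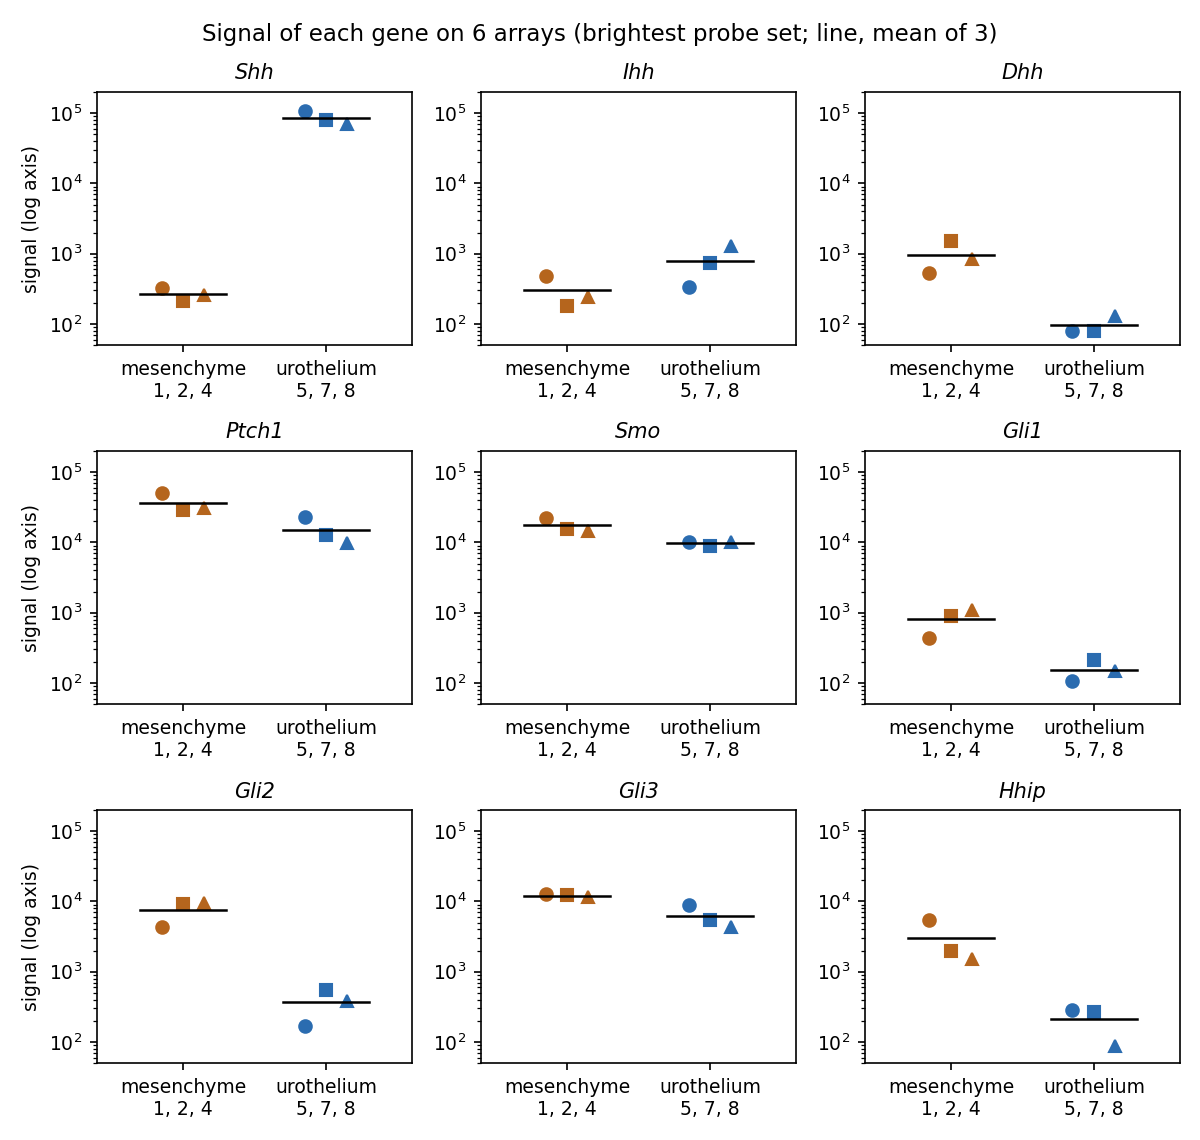
Signal of the brightest probe set of each gene on every array (log axis); circle, square and triangle are arrays 1, 2 and 4 of the mesenchyme (brown) and arrays 5, 7 and 8 of the urothelium (blue), and lines are means of 3 arrays. Shh lies between 71219 and 106233 on the urothelium arrays and at or below 320 on the mesenchyme arrays, while 7 genes lie higher on every mesenchyme array than on any urothelium array and Ihh overlaps; heights are not comparable between panels.

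Among the ligands, Shh gave signals of 320, 213 and 263 on mesenchyme 1, 2 and 4, and of 106233, 78951 and 71219 on urothelium 5, 7 and 8. The log2 difference was 8.10 ± 0.28 (SE, n = 3 per layer, 95% confidence interval 7.48 to 8.72), 274-fold on the scale of signal + 45, with limma adjusted p = 9.67e-07. The layers were far apart, and the highest and lowest arrays within a layer differed by 1.51-fold in mesenchyme and 1.49-fold in urothelium. A second probe set for Shh, 1427571_at, was dim throughout, at 6.38, 6.20 and 9.78 in mesenchyme and 187.9, 189.5 and 105.9 in urothelium. It separated the layers in the same direction (1.95 ± 0.36, adjusted p = 0.00606), with a difference that the added 45 compresses. In bulk tissue of this kind, fewer cells that express a gene and less RNA per cell cannot be told apart.

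Ihh, the ligand known from cartilage and gut epithelium, had 490, 178 and 245 on mesenchyme 1, 2 and 4, and 339, 740 and 1275 on urothelium 5, 7 and 8. Urothelium 5 lay below mesenchyme 1, so the layers overlapped through the same arrays that had the high actin ratio. The log2 difference was 1.17 ± 0.53 (95% interval −0.01 to 2.36; limma adjusted p = 0.286). Without both of those arrays it was 2.00 and past the test (adjusted p = 0.0355), and it also passed with arrays weighted by their fit (1.54, adjusted p = 0.0230). Over its 16 alternatives the value stayed above 0, from 0.75 to 2.00. Of 6 hindgut markers, 1 was higher in urothelium, Cdh17 (245 ± 134 in mesenchyme and 1248 ± 346 in urothelium). Vil1 had 46.0 ± 8.30 and 209 ± 95.1, without overlap between layers, and did not pass (limma adjusted p = 0.103). The defining hindgut factors Cdx1 and Cdx2 overlapped between layers, with mean signals of 9.64 and 60.2 in mesenchyme and 8.89 and 68.2 in urothelium, as did Tff3 and Lgals4. The summed signal of that list ran from 451 to 726 in mesenchyme and from 1292 to 2168 in urothelium, and its part in the Ihh signal was not tested.

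Dhh, the ligand known from Schwann cells, Sertoli cells and some vessels, ran opposite to Shh. Its brighter probe set, 1434959_at, read 531, 1508 and 831 on mesenchyme 1, 2 and 4, against 78.9, 78.4 and 130.4 on urothelium 5, 7 and 8. Every mesenchyme array was higher, with a log2 difference of −2.73 ± 0.48 (95% interval −3.80 to −1.66; limma adjusted p = 0.00487) or 6.64-fold, and the call held under all 16 alternatives. The other probe set, 1422127_at, stayed under 26 on all arrays, overlapped between layers (−0.16 ± 0.21, adjusted p = 0.773) and so cannot speak for either direction. All 7 of 7 endothelial markers were also higher in mesenchyme, with summed signals of 13471 to 17412 there and 694 to 868 in urothelium. Of 4 measured Schwann and neural crest markers, 1 was higher in urothelium, Erbb3 (665 ± 167 in mesenchyme and 23951 ± 3039 in urothelium; limma adjusted p = 5.60e-06), and 0 were higher in mesenchyme. The log2 difference of Erbb3 was 5.10, beside a median of 5.19 for the 12 epithelial markers. Whether its signal came from Schwann or neural crest cells was not tested. At an unadjusted p under 0.05 Fabp7 alone was higher in mesenchyme by limma, with 415 ± 180 against 83.1 ± 11.8. Sox10 had 323 ± 128 in mesenchyme and 374 ± 162 in urothelium, and Foxd3 also overlapped. Their part in the Dhh signal was not tested.

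On the receiving side, Ptch1 was bright in both layers. It read 50173, 29320 and 31324 on mesenchyme 1, 2 and 4, and 22640, 12910 and 9818 on urothelium 5, 7 and 8. The lowest mesenchyme array was above the highest urothelium array, but the margin was small, and mesenchyme 1 and urothelium 5 were the highest in their layers. The log2 difference was −1.33 ± 0.35 (95% interval −2.12 to −0.55), 2.52-fold, with limma adjusted p = 0.0471. That call was lost without mesenchyme 1 (−1.09, adjusted p = 0.134), mesenchyme 2 (−1.48, 0.0786), mesenchyme 4 (−1.43, 0.103), urothelium 7 (−1.26, 0.1997) or urothelium 8 (−1.07, 0.153), and with arrays centred on their medians (−1.15, adjusted p = 0.164). Its other probe sets were dim, with mean signals of 51.3 to 156, and neither separated the layers: 1450824_at differed by −0.47 ± 0.59 and 1439663_at by −0.32 ± 0.44.

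Smo, which carries the signal across the membrane, had 22529, 15498 and 14775 on mesenchyme 1, 2 and 4, and 10020, 8877 and 10110 on urothelium 5, 7 and 8, by its brightest probe set (1427049_s_at, a type whose probes can match more than 1 transcript). The layers did not overlap, yet the log2 difference of −0.84 ± 0.27 (95% interval −1.43 to −0.25) missed the threshold at limma adjusted p = 0.1004. The second Smo probe set, 1427048_at, read 9897, 6966 and 6561 against 2157, 3027 and 5227, again without overlap (−1.23 ± 0.35, adjusted p = 0.0646). It passed without urothelium 8 (−1.57) and with only the brighter probe sets tested. With array weights both passed, at −0.74 and −1.09. The third, 1442215_at, stayed under 25 on all arrays but mesenchyme 1, where it read 134.

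Hhip, a membrane-bound inhibitor that binds the ligands and is induced by the pathway, was higher in mesenchyme on all 4 of its probe sets. The brightest, 1455277_at, read 5468, 1979 and 1514 on mesenchyme 1, 2 and 4, against 284, 263 and 88.9 on urothelium 5, 7 and 8. Mesenchyme 1 was the highest of its layer here, as for Ptch1, and every mesenchyme array exceeded every urothelium array. The log2 difference was −3.44 ± 0.53 (95% interval −4.62 to −2.26; limma adjusted p = 0.00220), or 10.9-fold. The other 3 probe sets also separated the layers and passed the test: 1421426_at differed by −3.98 ± 0.51, 1438083_at by −3.08 ± 0.44 and 1437933_at by −2.17 ± 0.38. On 1438083_at the mesenchyme arrays lay closer together, at 692, 712 and 980, and mesenchyme 4 was the highest there. The calls of the brightest probe set held under all 16 alternatives, from −3.81 to −2.85.

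Gli1, the Gli gene whose transcription is most closely tied to signalling, had 433, 899 and 1102 on mesenchyme 1, 2 and 4, and 107, 210 and 149 on urothelium 5, 7 and 8. The layers did not overlap, and mesenchyme 1 and urothelium 5 were the lowest of their layers. The log2 difference was −2.03 ± 0.47 (95% interval −3.07 to −0.99; limma adjusted p = 0.0236), 4.10-fold. Without overlap, leaving out arrays could not change the direction. The call was lost without mesenchyme 2 (−1.92, limma adjusted p = 0.112), mesenchyme 4 (−1.78, 0.132), urothelium 5 (−1.85, 0.0690), urothelium 7 (−2.22, 0.0581) or urothelium 8 (−2.03, 0.0600). Gli1 has a single probe set on the array, so no other reading of it was at hand.

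Gli2, the main activator among the Gli proteins, showed the largest difference towards mesenchyme of the 9 genes. Probe set 1459211_at read 4280, 9097 and 9433 on mesenchyme 1, 2 and 4, and 169, 554 and 381 on urothelium 5, 7 and 8. The lowest mesenchyme array was well above the highest urothelium array, and mesenchyme 1 and urothelium 5 were again lowest within their layers. The log2 difference was −4.25 ± 0.45 (95% interval −5.24 to −3.26; limma adjusted p = 0.000162), 19.0-fold, and held under all 16 alternatives. The second probe set, 1446086_s_at, read 926, 3075 and 2864 against 3.81, 125.9 and 202.2, and gave −4.02 ± 0.66 (adjusted p = 0.00304). On mesenchyme 1, where Gli1 and Gli2 were low, the smooth muscle markers lay on average 0.73 below the mean of the mesenchyme arrays on the log2 scale and the mesenchymal markers 0.09 below it; their part in these low signals was not tested.

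Gli3, known largely as the repressor, was bright in both layers. Probe set 1455154_at read 12646, 12171 and 11448 on mesenchyme 1, 2 and 4, and 8854, 5500 and 4317 on urothelium 5, 7 and 8. Mesenchyme arrays were within 1.10-fold of each other and all lay above the urothelium arrays, which spread over 2.05-fold. The log2 difference of −1.02 ± 0.30 (95% interval −1.69 to −0.35) was not past the test over all probe sets (limma adjusted p = 0.0777). It was past it when 1 probe set per gene was tested (adjusted p = 0.0421), without urothelium 5 (−1.30, adjusted p = 0.0199), without mesenchyme 1 and urothelium 5 (−1.27, adjusted p = 0.0192), with array weights (−1.07) and when its probe sets were averaged (−1.09). Its second probe set, 1456067_at, read 2601, 3886 and 3088 against 897, 1973 and 2337 (−0.95 ± 0.38, adjusted p = 0.209), and the dim 1450525_at gave −1.32 ± 0.37 (adjusted p = 0.0611). All 3 probe sets separated the layers in the same direction.

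**Figure D2:**
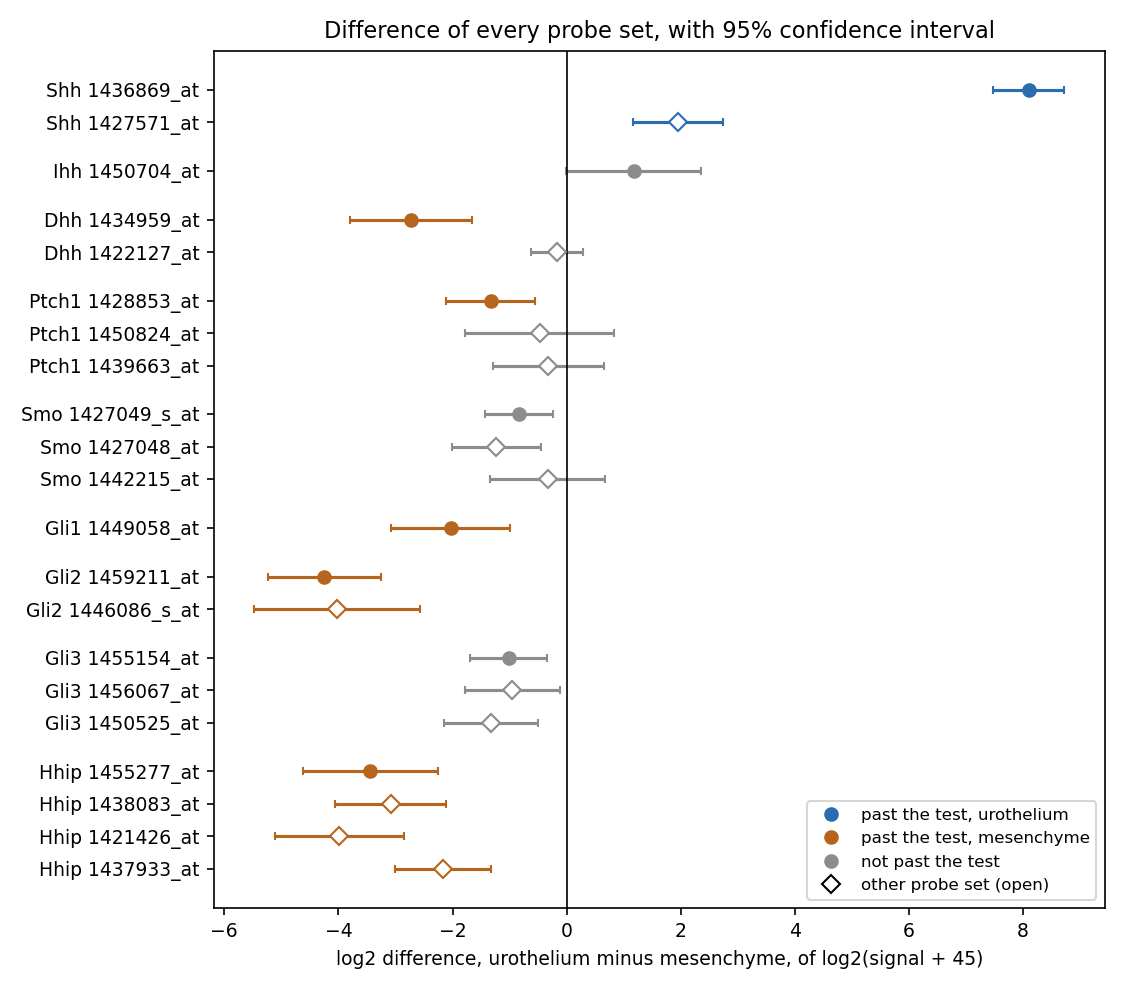
Log2 difference (urothelium minus mesenchyme, of log2(signal + 45)) with its 95% confidence interval for each of the 21 probe sets; filled circles are the brightest probe set of a gene, open diamonds the others, blue and brown those past the test in urothelium and mesenchyme, grey those not past it. The 4 Hhip and 2 Gli2 probe sets lie at −2.17 or lower, those of Smo and Gli3 between −1.32 and −0.33, and Shh at 8.10 and 1.95.

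In all, 7 of 9 brightest probe sets were higher on every mesenchyme array than on any urothelium array and 1 was higher on every urothelium array, beside 18.1% and 12.0% of all genes. For all 21 probe sets these counts were 14 and 2, beside 13.4% and 9.68%. Differences between genes were compared within arrays for 4 pairs, chosen after the values were seen. The log2 difference of Gli2 minus that of Gli3 was −3.23 and that of Hhip minus that of Ptch1 was −2.11, each with the layers fully separated. For Gli1 minus Ptch1 it was −0.70, with overlap, and the Shh difference lay 6.93 above that of Ihh. An exact two-sided permutation test over the 6 arrays gave p = 0.1 for 3 pairs, the smallest that 3 against 3 arrays allow, and p = 0.5 for Gli1 and Ptch1 (0.133 and 0.5 after Benjamini-Hochberg adjustment over 4 pairs), so none could pass 0.05.

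The mean signal of the lower layer was set against that of the higher one to see how strictly each gene kept to a layer. Shh kept 0.310% of its urothelial signal in mesenchyme, and Ihh 38.8%. Of the genes higher in mesenchyme, Gli2 kept 4.84% of its signal in urothelium, Hhip 7.11% and Dhh 10.02%. Gli1 kept 19.2%, Ptch1 40.9%, Gli3 51.5% and Smo 54.9%. Mesenchymal markers measured the same way kept 1.12% to 7.26% (median 3.49%) and endothelial markers 2.67% to 10.4% (median 5.87%). Smooth muscle markers kept 0.823% to 97.9% (median 2.06%), Des being the highest, and epithelial markers kept 0.183% to 43.6% in mesenchyme (median 2.83%), Elf3 being the highest. The range of the mesenchymal markers was taken over all 6 arrays only. The share of Gli2 lay inside it, also with any 1 array left out for Gli2 (3.61% to 6.15%). That of Hhip lay near its upper end but was 12.2% without mesenchyme 1, above every marker of that list, and 5.70% to 9.17% without any other array. The shares of Dhh, Gli1, Ptch1, Gli3 and Smo lay above every mesenchymal marker. Leaving out any 1 array moved the share of Ptch1 between 30.8% and 49.9%, that of Gli3 between 40.6% and 59.4%, that of Smo between 50.9% and 63.9%, that of Gli1 between 15.5% and 23.3% and that of Dhh between 8.20% and 14.1%. Dim signals include background, which raises such shares. No test was made on these shares.

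**Figure D3:**
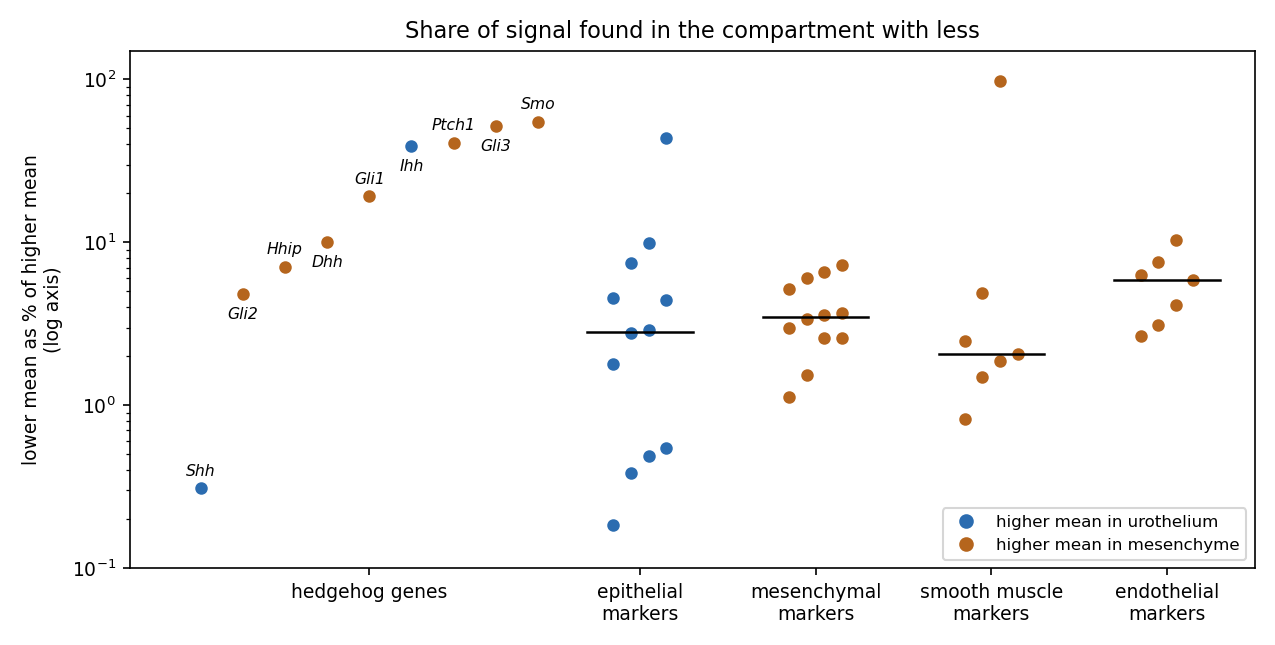
Mean signal of the layer with less, as a percent of the mean signal of the layer with more (log axis), for the 9 hedgehog genes in rising order and for 4 marker lists; each point is 1 gene, brown where mesenchyme and blue where urothelium had the higher mean, and lines are medians of a list. Ptch1, Gli3 and Smo at 40.9% to 54.9% lie above the mesenchymal markers, none of which exceeds 7.26%, while Des (97.9%) and Elf3 (43.6%) stand apart from the rest of their lists.

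Promoters of these genes were read for the Gli binding letters TGGGTGGTC on both strands, in windows from 250 bases before to 50 after a gene's start (RefSeq, GRCm38.p6). Of the 9 genes 7 had a window (Ihh, Dhh, Ptch1, Smo, Gli2, Gli3 and Hhip) and 0 held the exact letters, which 83 of 32851 windows (0.253%) hold. For Ptch1 and Gli2 a large part of the 250 bases lay inside the annotated gene, so their windows say little of what lies upstream. For Hhip and Dhh 198 and 228 of the 250 bases lay upstream of it. The part upstream of the annotated gene is shown for Hhip, which kept to the mesenchyme, and for Gli3, which was bright in both layers. Capitals mark the stretch closest to the letters, or the first found where several match equally well, as for Gli3. Both lines run 5′ to 3′ on the gene's strand. They are chr8:80058061-80058258, minus strand, and chr13:15463473-15463722, plus strand.
Hhip: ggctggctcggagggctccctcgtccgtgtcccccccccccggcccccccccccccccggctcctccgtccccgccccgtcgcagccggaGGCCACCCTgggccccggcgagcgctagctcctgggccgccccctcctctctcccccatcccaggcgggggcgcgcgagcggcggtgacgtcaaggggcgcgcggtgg
Gli3: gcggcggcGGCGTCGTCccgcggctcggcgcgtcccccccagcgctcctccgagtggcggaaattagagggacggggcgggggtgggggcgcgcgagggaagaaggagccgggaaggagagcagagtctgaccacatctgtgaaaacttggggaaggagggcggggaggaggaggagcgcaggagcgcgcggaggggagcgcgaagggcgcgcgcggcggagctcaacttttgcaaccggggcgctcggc
Both are rich in G and C, at 82.3% and 72.8%. The Hhip stretch matches 7 of the 9 letters on the minus strand of this sequence, which 43.7% of windows of that length do as well, and the Gli3 stretch matches 6, as 98.6% do. No match here says only that these letters are not in these windows.

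The other genes of the pathway were read in 4 lists, 36 measured genes by their brightest probe set. Of these 1 was higher in urothelium and 8 in mesenchyme, with a median log2 difference of −0.70, beside 4.72% and 7.24% and a median of −0.11 for all genes. With array weights the counts were 2 and 14, while those over all probe sets rose from 1296 and 2010 to 2673 and 3735. The count in mesenchyme was 6 with quantile normalization, with median centring, and without mesenchyme 1, 2 or 4 or urothelium 7 or 8. Genes that attach lipid to the ligands or release and carry them (Hhat, Disp1, Disp2 and Scube1 to Scube3) did not pass in either direction, 0 of 6 by limma and 0 of 6 at an unadjusted p under 0.05. Scube3, a secreted carrier, had 2075 ± 954 in mesenchyme and 1139 ± 712 in urothelium.

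Of 5 measured surface proteins, 2 were higher in mesenchyme and 1 in urothelium, beside 7.24% and 4.72% of all genes. Gas1, a co-receptor that helps present Shh to Ptch1, had 20682, 18048 and 18443 on mesenchyme 1, 2 and 4 and a mean of 1277 ± 808 in urothelium (−4.01 ± 0.38, limma adjusted p = 8.12e-05). Lrp2, the endocytic receptor megalin, which can bind Shh, ran the other way, from 222 ± 42.8 to 2945 ± 1142 (3.42 ± 0.39, adjusted p = 0.000270). The co-receptor gene Boc, named after its value was seen, had 1204 ± 132 and 401 ± 192 (−1.59 ± 0.42, limma adjusted p = 0.0461). The count of surface genes in mesenchyme was 1 when any single array, or both mesenchyme 1 and urothelium 5, was left out. Quantile normalization, median centring and the fit with no intensity trend also gave 1. Between Smo and the Gli proteins, 1 of 13 genes was higher in mesenchyme and 0 in urothelium, a share near the 7.24% of all genes. It was Prkacb, a catalytic subunit of protein kinase A, which phosphorylates the Gli proteins (3067 ± 332 and 1128 ± 420, −1.47 ± 0.34, limma adjusted p = 0.0226). That count was 0 without mesenchyme 1, 2 or 4 or urothelium 7 or 8, and with quantile normalization or median centring. With the filter on dim probe sets, no intensity trend, or 1 or the mean of the probe sets per gene the count was 2, and with array weights 5. Sufu, which holds the Gli proteins in the cytoplasm, had 5699 ± 1011 and 3654 ± 821. Its layers did not overlap, yet it missed the threshold (−0.64 ± 0.28, limma adjusted p = 0.267). Over these 13 genes the median log2 difference was −0.70, against −0.11 for all genes.

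Of 12 genes described as hedgehog targets in other tissues, 5 were higher in mesenchyme and 0 in urothelium, beside 7.24% and 4.72% of all genes; without mesenchyme 1 and urothelium 5 the count in mesenchyme was 6. Sfrp1, a secreted Wnt inhibitor, had 9717 ± 1687 and 440 ± 94.0 (−4.34 ± 0.30, limma adjusted p = 1.18e-05). Foxf1, a forkhead factor of splanchnic mesenchyme, had 10479, 3752 and 4685 on mesenchyme 1, 2 and 4, against 406 ± 132 in urothelium (−3.71 ± 0.42, limma adjusted p = 0.000246). Mesenchyme 1 was the highest there, as on the brightest probe sets of Ptch1 and Hhip, though not on every probe set of those genes. The others were Bmp4 (−3.66), Wnt5a (−3.64) and Foxf2 (−3.06), named after their values were seen. Mycn, a proliferation factor, had 3222 ± 976 and 3756 ± 1617 (0.15 ± 0.40, adjusted p = 0.911). Mesenchymal and smooth muscle markers were also higher in mesenchyme, 18 of 19 of them, and their part in these counts was not tested.

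**Figure D4:**
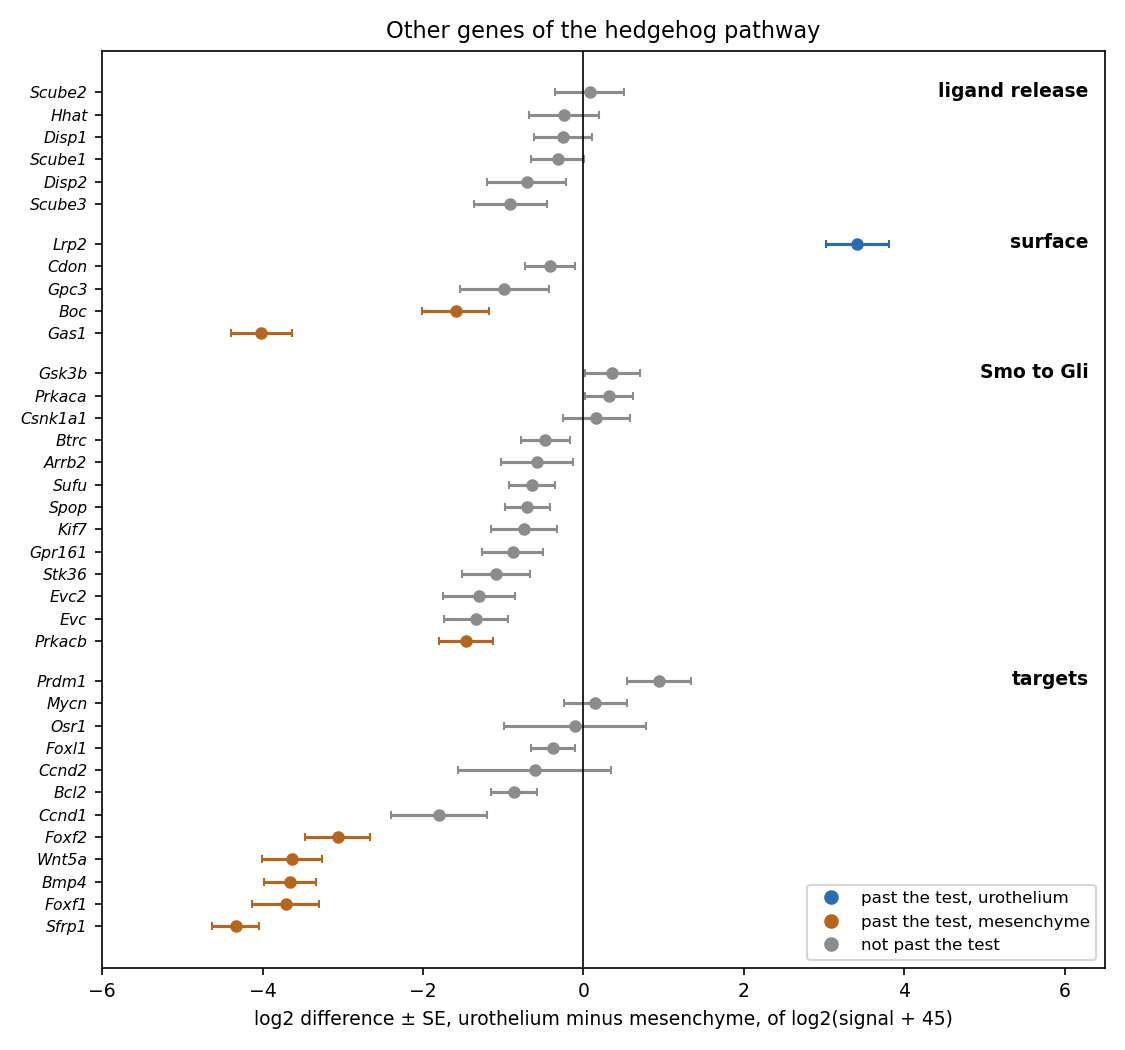
Log2 difference ± SE (urothelium minus mesenchyme, of log2(signal + 45)) of 36 other hedgehog pathway genes in 4 lists by role; blue is past the test in urothelium, brown past it in mesenchyme, grey not past it. Lrp2 at 3.42 is the 1 gene past the test in urothelium, and 5 targets between −4.34 and −3.06 and Gas1 at −4.01 stand farthest towards mesenchyme.

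The genes nearest to 3 of the members in profile over the 6 arrays were found by the root mean square difference of log2 signals after each profile was centred on its own mean. For Shh they were Trp63 (0.23), Foxa1 (0.35) and Clca1 (0.50). For Ptch1 they were Sdc2 (0.11), Entpd7 (0.12) and Spg20 (0.13), and for Gli1 Gimap8 (0.18), Lyl1 (0.20) and Egfl7 (0.21). With 3 arrays in each layer, these profiles are set mostly by the size of the difference between layers: it was 8.24, 7.92 and 8.09 for the neighbours of Shh, between −1.46 and −1.24 for those of Ptch1 and between −2.20 and −2.00 for those of Gli1.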

How the data were processed

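Each deposited intensity is linear and belongs to 1 probe set; the authors made it with GCOS, per the submitters' processing notes, and no source used here gives its settings or version. The 2% trimmed mean was 1500 on every array, so no further scaling was done. Leaving out 64 controls from 45101 probe sets, 34945 carry 1 symbol in the annotation, 932 carry several and 9160 carry none; 0 with several include a member. Entrez identifiers of 34741 probe sets were found in RefSeq, and 0 symbols changed.

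Signals became log2(signal + 45), 45 being the 25th percentile of all values. limma 3.58.1 in R 4.3.3 (lmFit, eBayes with an intensity trend) compared urothelium with mesenchyme on all 45037 probe sets, with Benjamini-Hochberg adjustment and a threshold of 0.05. A gene stands by its brightest probe set. The number of arrays, 3 per layer, limits the precision. The fit was tested on simulated data.

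Named were all members, of each pathway list the 2 genes past the test that differed most (or the brightest where none passed), and the 3 genes nearest in profile to Shh, Ptch1 and Gli1; Boc, Sufu, Mycn, Bmp4, Wnt5a, Foxf2 and the single markers were named after their values were seen. Alternatives were pseudocounts of 1 and 179, quantile normalization, median centring, a filter on dim probe sets, no trend, array weights, 1 or the mean of the probe sets per gene, and arrays left out. Members, lists and pairs were chosen with earlier results of these data known.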

Additional observations from a re-analysis of the deposited data

How the results depend on the processing

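All 9 brightest probe sets kept their direction in all 16 alternatives, and Shh, Dhh, Gli2 and Hhip also kept their calls. For genes whose layers did not overlap, leaving out or weighting arrays or changing the pseudocount could not change the direction. The filter, the fit without trend and that of 1 probe set per gene reuse the same difference. Ptch1 was not past the test with a pseudocount of 179 (−1.32), median centring (−1.15), no intensity trend (−1.33) or the mean of its probe sets (−0.71). Array weights brought Ihh (1.54), Smo (−0.74) and Gli3 (−1.07) past it, the fit of 1 probe set per gene (−1.02) and the mean of probe sets (−1.09) brought Gli3, and leaving out both mesenchyme 1 and urothelium 5 brought Ihh (2.00) and Gli3 (−1.27). With single arrays left out, Ptch1 ranged from −1.67 to −1.07, Gli1 from −2.41 to −1.78 and Gli3 from −1.30 to −0.79. The genes called in mesenchyme then numbered 3 to 5, being 3 without mesenchyme 2, mesenchyme 4, urothelium 7 or urothelium 8; in urothelium there were 2 with array weights and without both arrays. Over all probe sets the counts in urothelium and mesenchyme were 1296 and 2010, 725 to 1229 and 1257 to 1990 with single arrays left out (725 and 1257 without urothelium 7, and 860 and 851 in urothelium without mesenchyme 2 and mesenchyme 4), and 2673 and 3735 with array weights; the mean of probe sets gave 833 genes in urothelium. The 36 other pathway genes gave 2 and 14 with array weights, and 6 in mesenchyme with quantile normalization or median centring. Median centring moved every difference up by 0.19, the median of all probe sets going from −0.07 to 0.11. Dim probe sets changed sign: Dhh 1422127_at with median centring (0.022), array weights (0.010) and without both arrays (0.043), Smo 1442215_at with a pseudocount of 1 (0.15), array weights (0.064), without both arrays (0.31) and with single arrays left out (−0.68 to 0.30), and, with single arrays left out, Ptch1 1450824_at (−0.99 to 0.020) and 1439663_at (−0.57 to 0.12). The filter left dim probe sets without a value. No paired analysis was possible because the replicate numbers of the layers do not overlap. Low signal over background limits what the probe sets near or under the median signal of 132 to 240 can show.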
